A study of Mus musculus with 9 samples.

Results

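The comparison described here sets 5-Brd-2′-dU-exposed against unexposed B16F1 cells, profiled by small RNA sequencing. It holds 6 of the 9 libraries of the series, chosen by their labels: 3 control libraries and 3 libraries exposed to 5-Brd-2′-dU at 2.5 µg/mL for 72 h. B16F1 is a melanoma cell line of the C57BL/6J mouse (the labels also write C57BL/6), so all libraries come from 1 line with 1 genetic background, and the control cells were cultured in the same serum-supplemented medium without the compound. The remaining 3 libraries, exposed to 5.0 mM L-Tyr for 72 h, enter only where the exposures are set against each other. The study's purpose was to relate miRNA levels to the reduced growth and the low pigmentation of the exposed cells. The series describes the 3 libraries of a group as independent replicates, and every p-value below measures only the spread between these libraries.

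miRNAs are short RNAs that load into Argonaute proteins and repress messenger RNAs that pair with their seed, the bases near the 5′ end that decide most of the targeting. Each comes from a hairpin whose strands give a 5p and a 3p arm. Hairpins with the same seed form families, and neighbouring hairpins can be cut from 1 primary transcript. 5-Brd-2′-dU is a thymidine analogue that is built into replicating DNA. In melanocytes, miR-211 is made from an intron of Trpm1, a gene driven by the pigment cell regulator Mitf, and is the best known miRNA of the lineage.

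The deposited table gave counts of short sequence tags of 13 to 20 nt. Its 4199 tags of known hairpins were summed by arm over 391 hairpins, and 507 arms had a count in the 6 libraries and 259 passed the filter on low counts. Known tags summed to 195340, 419408 and 259290 counts in the control libraries and to 167936, 376370 and 374290 in the exposed libraries. These counts are the depth of the deposited table and are low for small RNA sequencing. The study reported average numbers of readings per group that are far above them. At the depth of the table, 3 counts correspond to between 6.64 and 17.2 CPM. CPM are counts scaled to a common library size of 1e6 after normalisation by edgeR's trimmed mean of M-values. Precision is set by this depth and by the spread of the libraries, whose common coefficient of biological variation was 0.749. Between 21.7% and 32.4% of the known counts of a library sat on tags listed under more than 1 hairpin, so near-identical copies cannot be told apart.

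Exposed replicate 3 stood apart from the other 5 libraries. It was the highest library by over 4-fold for 23 of the 212 arms with a mean of at least 100 CPM, against 1 arm for control replicate 3 and 0 arms for each of the other libraries. miR-143-3p alone took 19.7% of its known counts, against 0.0900% to 0.453% in the other 5 libraries. Results are therefore given with this library and without it.

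The sequences below belong to the arms that passed the test with or without exposed replicate 3 and to their closest companions, and are shown because the families and arm comparisons rest on them. They are RefSeq mature sequences (table of GRCm38.p6), written 5′ to 3′ in lower case with the seed (bases 2 to 8) in capitals. RefSeq gave a mature sequence for 234 of the 259 arms tested.
miR-335-5p: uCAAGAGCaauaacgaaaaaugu
miR-335-3p: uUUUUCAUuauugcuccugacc
miR-129-5p, made by both miR-129 hairpins: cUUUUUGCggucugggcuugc
miR-129-2-3p: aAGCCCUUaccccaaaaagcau
miR-22-3p: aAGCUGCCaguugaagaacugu
miR-21a-5p: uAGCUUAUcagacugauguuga
miR-455-3p: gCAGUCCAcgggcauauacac
miR-99b-5p: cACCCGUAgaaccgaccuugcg
miR-99a-5p: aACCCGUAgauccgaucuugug
miR-193b-3p: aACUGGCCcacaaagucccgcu
miR-365-3p, made by both miR-365 hairpins: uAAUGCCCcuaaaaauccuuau
miR-211-5p: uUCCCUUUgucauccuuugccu
miR-211-3p: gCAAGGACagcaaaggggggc
miR-130b-5p: aCUCUUUCccuguugcacuacu
miR-148b-3p: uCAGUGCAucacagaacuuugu
miR-3963: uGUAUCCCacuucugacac

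The tags counted were often shorter than these sequences and began inside them, so that 58.5% of the 234 tested arms with a RefSeq sequence had a most abundant tag whose bases 2 to 8 were not the annotated seed. The most abundant tags of 2 arms show this, written in lower case as the count table gives them.
miR-335-5p, most abundant tag: aagagcaataacgaaaaatg
miR-3963, most abundant tag: atcccacttctgacacca
The first held 34.3% of the counts of miR-335-5p over the 6 libraries, and the second held 99.9% of those of miR-3963.

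Of the 259 arms tested, 8 (3.09%) passed an adjusted p of 0.05 in edgeR's quasi-likelihood test (Benjamini-Hochberg adjustment over all arms). Higher in exposed cells were 7 arms (2.7%), namely miR-335-5p, miR-22-3p, the 5p arms of both miR-129 hairpins, miR-129-2-3p, miR-455-3p and miR-21a-5p. The single arm lower in exposed cells (0.386%) was miR-3963. Without exposed replicate 3, 10 of 279 arms (3.58%) passed, 9 of them higher, and these were the same 8 arms with miR-335-3p and miR-99b-5p added. An unadjusted p under 0.05 was reached by 51 arms with all 6 libraries and by 38 without exposed replicate 3. The median log2 fold change over all arms tested was −0.02 and −0.14, respectively, and it was 0.011 when the second fit was scaled by total count, so the changes are best read against a zero that moves by more than 0.1 with the scaling.

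miR-335 showed the clearest difference of the comparison. Its hairpin lies in an intron of Mest, an imprinted gene, at chr6:30691299-30691396 of NCBIM37 on the plus strand, and the miRNA is known as a suppressor of metastasis in breast cancer. miR-335-5p stood at 359.7, 495.97 and 512 CPM in the control libraries and at 3531, 3002 and 4257 CPM in the exposed libraries. Every exposed library lay above every control library, and the arm rose 7.88-fold (log2 fold change 2.98 ± 0.30 SE, adjusted p = 0.00159). Without exposed replicate 3 its log2 fold change was 2.81 (adjusted p = 0.00317), and it passed the test whichever of the 6 libraries was left out. In a fit of all 9 libraries it did not pass (adjusted p = 0.127). On the opposite arm, miR-335-3p gave 114, 90.8 and 0 CPM in control cells and 1307, 1796 and 1424 CPM in exposed cells. The groups did not overlap, and its log2 fold change was 4.46 ± 1.08 (adjusted p = 0.0631), or 4.47 without exposed replicate 3 (adjusted p = 0.0476). Tags that began at the annotated first base made up 17.9% to 27.5% of miR-335-5p counts in control libraries and 1.14% to 16.5% in exposed libraries, a description for which no test was run.

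miR-129 was higher under both of its hairpins, miR-129-1 at chr6:28972619-28972691 on the plus strand and miR-129-2 at chr2:94081521-94081610 on the minus strand. miR-129-5p is known to target Cdk6, a kinase of the cell cycle. The 5p arm listed under miR-129-2 gave 2348, 2535 and 2605 CPM in control and 9666, 6416 and 5869 CPM in exposed libraries. All exposed libraries lay above all controls, with a rise of 2.93-fold (log2 1.55 ± 0.25, adjusted p = 0.0173). The arm listed under miR-129-1 had 2353, 2562 and 2856 against 9637, 6532 and 5844 CPM (log2 1.50 ± 0.25, adjusted p = 0.0173), but 97.3% of its counts were on tags also listed elsewhere, and the 5p arms count as 1 measurement. The 3p arms differ in sequence. miR-129-2-3p, with only 3.71% of its counts on shared tags, gave 734, 1222 and 1292 CPM in control and 3428, 3346 and 3395 CPM in exposed libraries. It rose 3.13-fold (log2 1.65 ± 0.29, adjusted p = 0.0177). miR-129-1-3p, at 156, 188.2 and 414 against 447, 474 and 329.7 CPM, overlapped between the groups and did not pass (log2 0.72 ± 0.61, adjusted p = 0.617).

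miR-22-3p, which is known to rise in senescent fibroblasts, stood at 2736, 2236 and 2839 CPM in control and 6169, 7589 and 6242 CPM in exposed libraries. The libraries of each group lay close together, and the rise was 2.56-fold (log2 1.36 ± 0.22, adjusted p = 0.0173, or 1.37 without exposed replicate 3). Its hairpin lies in annotated exons of 2210403K04Rik and Tlcd2 at chr11:75277218-75277312 on the plus strand. miR-21a-5p, an oncogenic miRNA that represses Pdcd4, had 1837, 2072 and 609.6 CPM in control and 5699, 6713 and 11351 CPM in exposed libraries. Control replicate 3 was the lowest of the 6 and exposed replicate 3 the highest, and the rise was 5.25-fold (log2 2.39 ± 0.48, adjusted p = 0.0288) or 2.02 on the log2 scale without exposed replicate 3 (adjusted p = 0.0435). The hairpin is in an exon of Vmp1 at chr11:86397569-86397660 on the minus strand.

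miR-455-3p, from an intron of the collagen gene Col27a1 at chr4:62917885-62917966 and known from cartilage, gave 246, 203.7 and 392.2 CPM in control and 1749, 994 and 2225 CPM in exposed libraries. It rose 5.90-fold (log2 2.56 ± 0.47, adjusted p = 0.0177), with the exposed libraries spread over a wider range than the controls. miR-99b-5p belongs to a family known to target Mtor and lies at chr17:17967152-17967221. It had 25476, 31277 and 38101 CPM in control and 83173, 60717 and 63236 CPM in exposed libraries. The groups did not overlap, and the arm passed the test without exposed replicate 3 (log2 1.16, adjusted p = 0.0435) and not with it (log2 1.13 ± 0.26, adjusted p = 0.0600).

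miR-3963 was the arm that fell. It stood at 127199.7, 154074 and 247084 CPM in control and 47824, 37748 and 56577 CPM in exposed libraries, which is 3.72-fold lower (log2 −1.89 ± 0.33, adjusted p = 0.0173), and −2.07 on the log2 scale without exposed replicate 3. It took between 13.8% and 22.4% of the known counts of a control library and between 4.17% and 4.97% of those of an exposed library, and leaving its tags out of the table left the 7 other calls in place. Almost all of these counts are copies of the 1 tag of 18 nt printed above. That tag begins inside the printed seed and so lacks part of it, and it runs past the 3′ end of the printed sequence. Whether it is the annotated mature miRNA was not tested. The hairpin has no annotated gene on its strand and lies at chr3:150686756-150686826 on the minus strand.

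**Figure D1:**
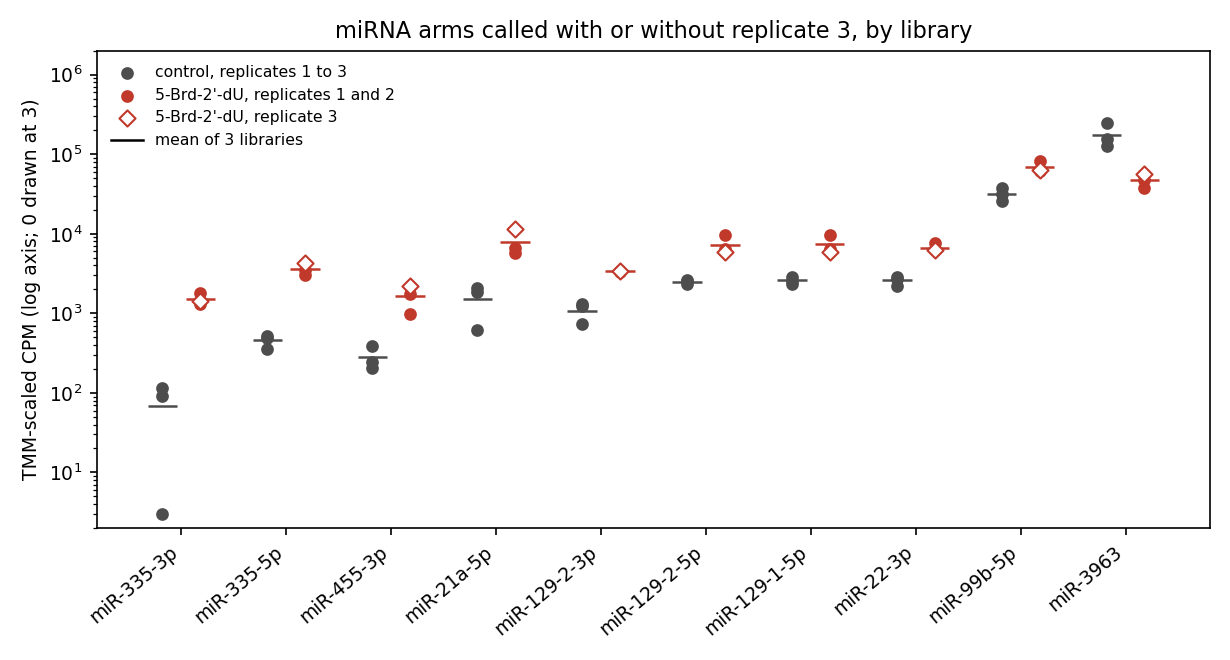
The plot shows TMM-scaled CPM (log axis, with 0 drawn at 3) of the 10 arms called with or without exposed replicate 3, 1 point per library and a bar at the mean of 3 libraries. Exposed libraries lie above all control libraries for 9 arms and below them for miR-3963.

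These calls depended on single control libraries. Without control replicate 1, 2 arms passed (miR-335-5p and miR-3963), and without control replicate 2 only miR-335-5p did; miR-3963 also missed the threshold without exposed replicate 2, and miR-21a-5p did too. The log2 fold changes moved little in these fits: that of miR-22-3p ranged from 1.16 to 1.37, and that of miR-455-3p from 2.25 to 2.82. When only tags listed under a single hairpin were counted, miR-21a-5p and the 5p arms of miR-129 no longer passed.

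With a mean of at least 100 CPM, a further 20 arms had groups that did not overlap and an unadjusted p under 0.05 in both fits but did not pass the adjusted threshold. The background for such separation is wide: 39 of the 259 arms tested (15.1%) were higher in all exposed libraries and 30 (11.6%) were lower in all of them. Of the 20 arms, 8 were higher and 12 were lower, and the 8 with the largest log2 fold change in each direction are given. miR-193b-3p, known to target cyclin D1 in melanoma, gave 0, 15.5 and 239 CPM in control and 1307, 1083 and 1022 CPM in exposed libraries (log2 3.75 ± 1.33, adjusted p = 0.186). It was close to absent in 2 control libraries and even across the 3 exposed libraries. Its neighbour miR-365-1-3p gave 80.5, 77.5 and 234 against 613, 674.6 and 551 CPM (log2 2.23 ± 0.65, adjusted p = 0.0983), and miR-365-2-3p, which shares its tags, had a log2 fold change of 2.38 ± 0.60 (adjusted p = 0.0655). The others were miR-143-3p (described with exposed replicate 3 below), miR-181a-2-3p at 1.88, let-7b-3p at 1.24, miR-191-5p at 0.88 and miR-99a-5p at 0.58 on the log2 scale.

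Of the 12 arms lower in exposed cells, the largest log2 fold change was that of miR-211-3p, the passenger arm of the melanocyte miRNA. It gave 1079, 929.9 and 1475 CPM in control and 235, 399.9 and 388 CPM in exposed libraries (log2 −1.76 ± 0.43, adjusted p = 0.0631). The dominant arm miR-211-5p gave 9164, 13699 and 14499 against 7287, 6478 and 7065 CPM (log2 −0.84 ± 0.24, adjusted p = 0.0979). Neither arm overlapped between the groups and neither passed alone, while the whole hairpin did, as given with the clusters. miR-148b-3p, of a family known to target Mitf, gave 3077, 4200.3 and 4076 against 762, 2145 and 1869 CPM (log2 −1.25 ± 0.39, adjusted p = 0.133). miR-25-3p, whose hairpin lies in Mcm7 with those of miR-93 and miR-106b, gave 3082, 3824 and 3308 against 1639.6, 1894 and 1942 CPM (log2 −0.90 ± 0.24, adjusted p = 0.0833). The log2 fold changes of the others among the 8 largest were −1.39 for miR-361-5p, −1.19 for miR-532-5p, −1.16 for miR-130b-5p, −1.01 for miR-128-1-3p and −1.01 for miR-30a-3p.

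Exposed replicate 3 carried high counts of miRNAs that mark other cell types. miR-143-3p, an abundant miRNA of smooth muscle and fibroblasts, gave 1959.7, 1798 and 993 CPM in control and 2987, 3811 and 267475 CPM in exposed libraries, and its log2 fold change dropped from 5.85 ± 1.70 to 1.08 without that library. The endothelial miR-126a-3p gave 104, 99.6 and 59.7 against 235, 223 and 7072 CPM, with log2 fold changes of 4.83 ± 1.37 and 1.35. In both cases exposed replicates 1 and 2 were also above every control library, by a far smaller distance. The log2 fold change of 16 arms with a mean of at least 100 CPM differed by over 1 between the fits, and in all 16 it was higher with exposed replicate 3 included. None of these 16 passed in either fit.

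Among the 16, the X-linked group of miR-322, miR-542 and miR-450a stood out by its number of members. miR-322-5p, a relative of miR-16, gave 14.2, 188.2 and 4.26 CPM in control and 45.9, 168 and 7279 CPM in exposed libraries, and its log2 fold change was 5.10 ± 1.95 with all 6 libraries and 0.63 without exposed replicate 3. That of miR-542-3p was 3.97 ± 1.48 with all 6 libraries and 1.76 without exposed replicate 3, and that of miR-450a-1-5p was 1.79 ± 1.55 with all 6 libraries and 0.27 without exposed replicate 3. Control replicate 3 held almost no count of these arms, and exposed replicate 3 was the highest library for each. miR-100-5p gave 4.18 ± 1.43 with all 6 libraries and 1.18 without exposed replicate 3, and miR-145a-5p, cut from the same transcript as miR-143, gave 3.62 ± 1.98 with all 6 libraries and 0.63 without exposed replicate 3. miR-221-3p, a miRNA known to repress the cell cycle inhibitor p27 in melanoma, gave 2.90 ± 1.30 with all 6 libraries and 0.28 without exposed replicate 3.

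Several arms changed sign or size with this library. miR-101a-3p, which targets Ezh2, gave 838, 848 and 345 CPM in control and 447, 695 and 8137 CPM in exposed libraries, with log2 fold changes of 2.19 ± 1.01 with all 6 libraries and −0.26 without it. The 3p arms of the mesenchymal miR-199 hairpins went from 0.07 ± 0.76, 0.24 ± 0.81 and −0.0031 ± 0.75 (miR-199a-1, miR-199a-2 and miR-199b) to −1.09, −1.09 and −1.19. miR-24-1-5p went from 0.52 ± 1.63 to −2.09. miR-27a-3p, at 13031, 23800.0 and 82427 CPM in the exposed libraries, went from 1.17 ± 0.59 to 0.03, and miR-7003-3p, made of 2 short tags, from −2.60 ± 1.40 to −5.45. By contrast, 227 of the 256 arms in both fits kept their sign, and 8 arms passed in both.

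**Figure D2:**
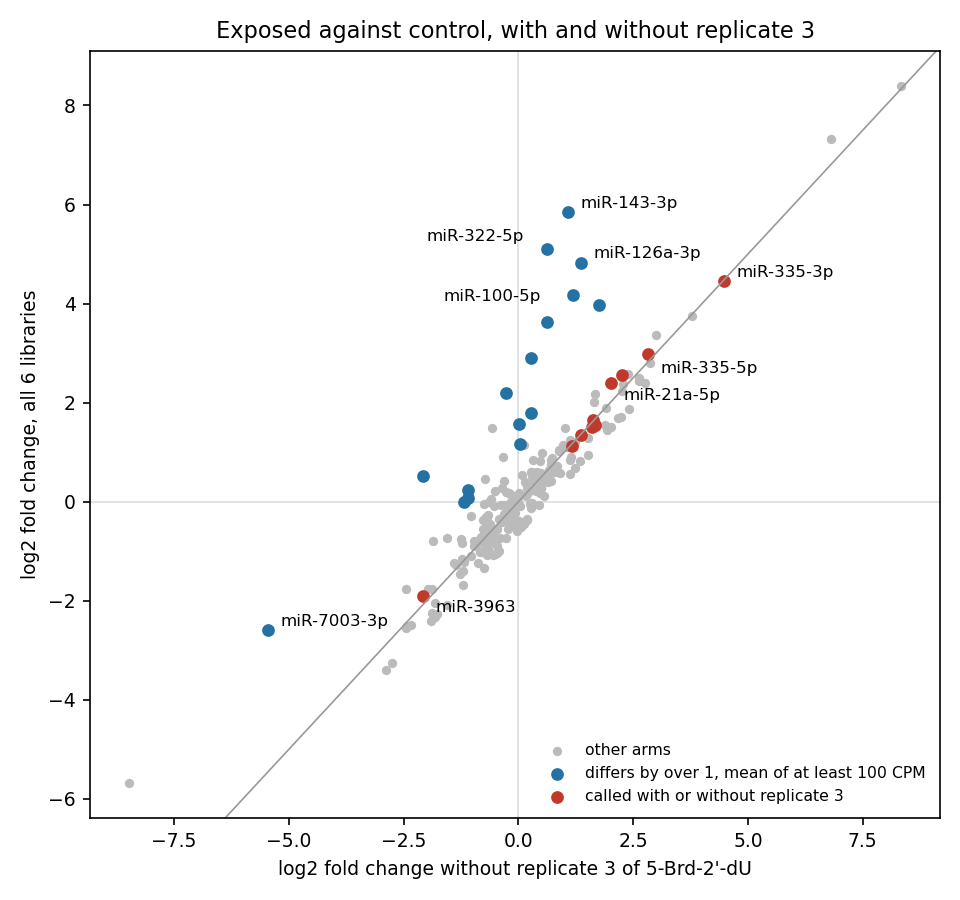
Each point is 1 of the 256 arms tested in both fits, with its log2 fold change without exposed replicate 3 on the x axis and with all 6 libraries on the y axis, and the line marks equal values. Called arms (red) lie near the line, while the 16 arms whose values differ by over 1 (blue) lie above it.

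Summed over whole marker lists, the same library stood out for 7 cell types. Stromal miRNAs (miR-143, miR-145a, miR-199a, miR-199b and miR-214) summed to between 1846 and 3271 CPM in control libraries and to 3428, 4512 and 273069 CPM in exposed libraries. Erythroid miRNAs (miR-451a, miR-144, miR-486a and miR-486b) summed to at most 17.1 CPM in control libraries and to 516, 60.3 and 6659 CPM in exposed libraries. This sum also mixes different patterns. The cluster of miR-144 and miR-451a gave 17.2, 6.70 and 6358 CPM in exposed libraries, against 0, 4.43 and 17.1 CPM in control. In exposed replicates 1 and 2 most of the sum was miR-486. Leukocyte miRNAs, of which miR-150 had no count, summed to at most 42.1 CPM in control and to 63.1, 13.4 and 1525 CPM in exposed libraries. Exposed replicates 1 and 2 lay far below exposed replicate 3 in all 3 lists, and their sums were above the control range for the stromal and erythroid ones. In the stromal list this was carried by miR-143, at 2987 and 3811 CPM there against at most 1959.7 CPM in control. The cluster of miR-199a-2 and miR-214 was lower in exposed replicates 1 and 2 (108.9 and 201.1 CPM) than in control (449.7, 327.7 and 217.4 CPM). The hairpins of miR-199a-1 and miR-199b were lower there too, while miR-145a overlapped. Endothelial miR-126a summed to between 59.7 and 109 CPM in control and to 258, 266 and 7366 CPM in exposed libraries. Epithelial miRNAs, of which miR-200a and miR-429 had no count, summed to between 175 and 362.4 CPM in control and to 797, 853 and 3496 CPM in exposed libraries. This sum mixes different patterns. In exposed replicates 1 and 2 it was nearly all miR-203-3p, which in exposed replicate 3 was within the control range. There the cluster of miR-141 and miR-200c gave 2739 CPM, against 0 and 24.6 CPM in exposed replicates 1 and 2. Hepatic miR-122 and muscle miR-1a had a count in exposed replicate 3 only (21.7 and 239 CPM), and miR-133a, miR-133b and miR-206 had none. In bulk samples, fewer cells of a type and less RNA per cell cannot be told apart, and the part of these miRNAs in the results was not tested.

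The main miRNA of the labelled cell type was present in all 6 libraries. miR-211 and miR-204, the melanocyte markers, summed to 10262, 14651 and 16034 CPM in control and 7522, 6905 and 7481 CPM in exposed libraries, and exposed replicate 3 was like the other exposed libraries in this. Nearly all of this sum was miR-211, while miR-204 did not pass the filter on low counts. The neural list was carried by miR-9, which summed to 4606, 4056 and 3547 CPM in control and 1714, 2833 and 2475 CPM in exposed libraries, while miR-124 had no count.

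**Figure D3:**
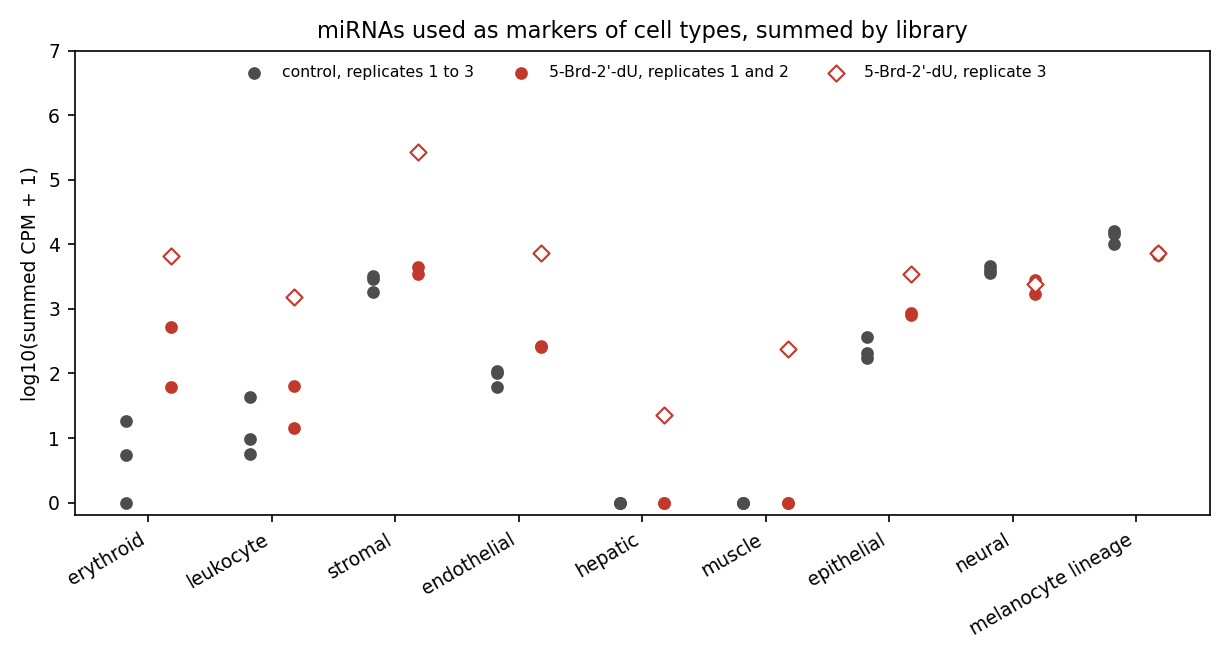
For each cell type, points give log10(summed CPM + 1) of its marker miRNAs in the 3 control libraries (grey), exposed replicates 1 and 2 (red) and exposed replicate 3 (open diamond). The diamond is the highest point for 7 lists and lies with the other exposed libraries for the neural and melanocyte lists.

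Counts were then summed over seed families, which joins copies that have the same seed. Copies with different most abundant tags, such as miR-365-1-3p and miR-365-2-3p, stay apart where the seed is read from the tag. When the seed was read from the most abundant tag, 8 of 210 families passed (3.81%), and without exposed replicate 3, 7 of 228 passed (3.07%), with 6 families in both. They repeat the arms above, with miR-486a-5p and its copy miR-486b-5p added and the miR-129-5p arms joined. The miR-486 family was at 0 counts in all 3 control libraries and at 499, 53.6 and 301 CPM in exposed libraries (adjusted p = 0.0479). With no control count, it passed the filter on low counts through the exposed libraries alone. Set against 3 counts over the control group, the 99 counts listed under miR-486a-5p give a ratio of 33.0. With the 56 counts of exposed replicates 1 and 2 alone the ratio is 26.9. These ratios of pooled counts leave out the spread between libraries and are no limit on the change. The miRNA is one of the erythroid markers above. The family of miR-99b-5p and miR-99a-5p passed without exposed replicate 3 (log2 1.00, adjusted p = 0.0410) and not with it (log2 0.91 ± 0.22, adjusted p = 0.0550).

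With the seed of the RefSeq sequence, which groups arms as annotated, 10 families passed (5.15% of those tested). The miR-129-5p family had 4700.4, 5097 and 5461 CPM in control and 19303, 12948 and 11713 CPM in exposed libraries, and rose 2.63-fold (log2 1.40 ± 0.26, adjusted p = 0.0273). The miR-365-3p family had 185, 148.3 and 409.3 against 1124, 1318 and 1221 CPM and rose 4.55-fold (log2 2.19 ± 0.49, adjusted p = 0.0445). These were the only called families among the 35 with at least 2 tested arms. The 8 other called families held a single tested arm each. Of these, miR-211-3p fell (log2 −1.90 ± 0.41, adjusted p = 0.0445), and so did miR-130b-5p (log2 −1.31 ± 0.30, adjusted p = 0.0445). With that library left out, 5 RefSeq families passed, and miR-365-3p, miR-211-3p and miR-130b-5p each had an adjusted p of 0.0599.

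The large families showed no call. The let-7 family, known to restrain growth, was the most abundant family of at least 2 tested arms, and its 12 tested 5p arms had log2 fold changes from −0.71 to 0.43. Their sum had a log2 fold change of −0.48 ± 0.28 (adjusted p = 0.444). Within it, let-7b-5p stood at 24965, 21639 and 33330.0 against 40772, 19984 and 25825 CPM, and let-7a-1-5p at 24851, 18683 and 27724 against 19693, 10361 and 14108 CPM. Both overlapped between the groups. The miR-99/100 family gave 0.87 ± 0.22 (adjusted p = 0.0599), the miR-15/16 family 0.05 ± 0.18 and the miR-26 family 0.42 ± 0.31 on the log2 scale. For the family of miR-148b and miR-152, known to target Mitf, the value was −1.20 ± 0.29 (adjusted p = 0.0540).

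Hairpins on the same strand and within 10000 bp of the next were summed as genomic clusters. Positions in NCBIM37 were found for 339 hairpins and gave 42 clusters of at least 2 hairpins. Of the clusters and single hairpins tested, 13 passed (8.39%), namely 4 of 35 clusters and 9 of 120 single hairpins. When exposed replicate 3 was left out, 12 of 164 passed (7.32%), and 10 were called in both fits.

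The cluster of miR-193b and miR-365-1 (chr16:13449616-13449694 and chr16:13453933-13454019, plus strand) had 109, 92.99 and 482 CPM in control and 2018, 1847 and 1572 CPM in exposed libraries. It rose 8.01-fold (log2 3.00 ± 0.64, adjusted p = 0.0275), with an adjusted p of 0.00173 without exposed replicate 3. The single hairpin of miR-365-2 (chr11:79539902-79540013) passed with a log2 fold change of 2.37 ± 0.56 (adjusted p = 0.0329), but its reads cannot be told from those of miR-365-1.

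The cluster of miR-99b, let-7e and miR-125a (chr17:17967152-17967221, chr17:17967316-17967408 and chr17:17967767-17967851) had 34167, 38287 and 47049 CPM in control and 100979, 68129.6 and 75826 CPM in exposed libraries. It rose 2.01-fold (log2 1.01 ± 0.23, adjusted p = 0.0307; 0.00247 without exposed replicate 3). miR-99b-5p carries most of this sum. The log2 fold change of let-7e-5p was 0.43 ± 0.32 and that of miR-125a-5p 1.15 ± 0.38, and the groups overlapped for both.

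The cluster of miR-191 and miR-425 (chr9:108470650-108470723 and chr9:108471108-108471192) had 7971, 8352 and 7563 CPM in control and 12125, 13946 and 15611 CPM in exposed libraries. It passed with all 6 libraries (log2 0.77 ± 0.19, adjusted p = 0.0461) and not without exposed replicate 3 (adjusted p = 0.129). The cluster of miR-130b and miR-301b (chr16:17124154-17124235 for miR-130b, minus strand, in an intron of 2610318N02Rik) was the called cluster that was lower in exposed cells. It had 4563, 4628 and 3692 CPM in control and 2522, 2024 and 2076 CPM in exposed libraries (log2 −0.996 ± 0.22, adjusted p = 0.0307; 0.0933 without exposed replicate 3).

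**Figure D4:**
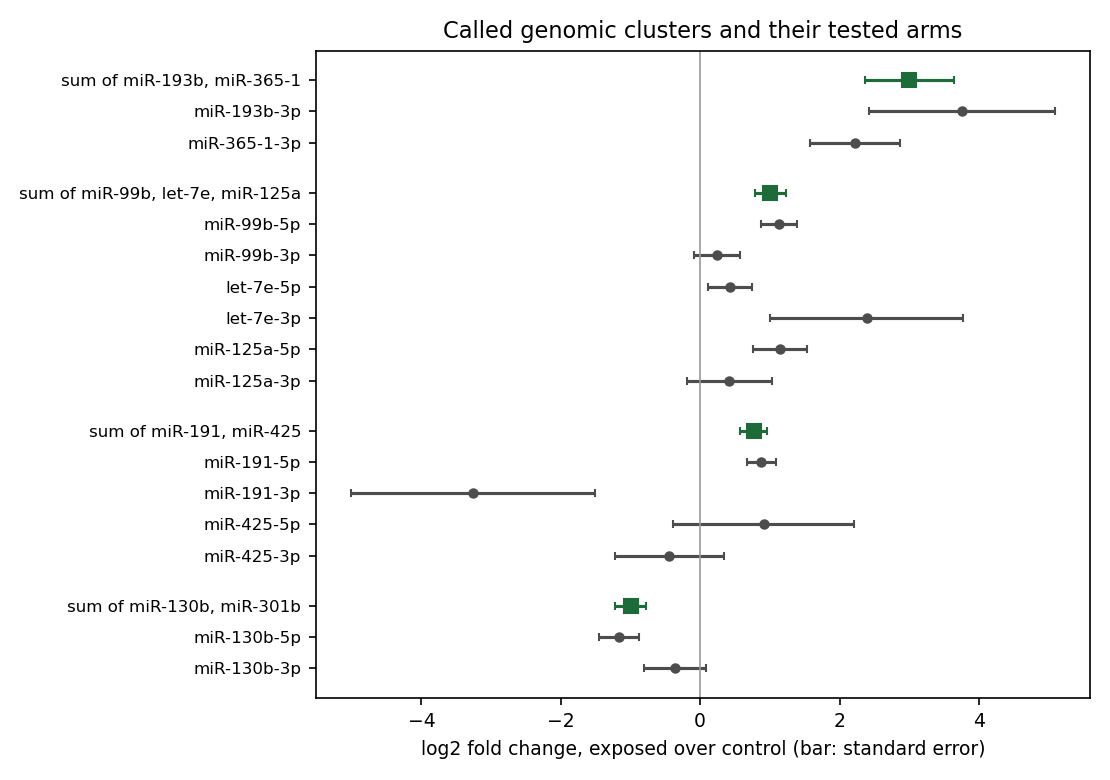
Green squares give the log2 fold change (exposed over control, 6 libraries) of the summed counts of the 4 called clusters and grey dots that of their tested arms, with bars of 1 standard error. The sums of 3 clusters lie above 0 and that of miR-130b and miR-301b lies below 0, while single arms such as miR-191-3p deviate from their cluster.

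Among single hairpins, miR-211 (chr7:71350692-71350797, in an intron of Trpm1) fell from 10243, 14629 and 15974 CPM in control to 7522, 6878 and 7453 CPM in exposed libraries. It was 1.90-fold lower (log2 −0.93 ± 0.21, adjusted p = 0.0308), and without exposed replicate 3 it missed the threshold at a similar size (log2 −0.91, adjusted p = 0.0584). With both arms summed, miR-335 rose 9.51-fold (log2 3.25 ± 0.23, adjusted p = 7.14e-05). The remaining called hairpins were miR-129-1, miR-129-2, miR-22, miR-455, miR-21a, miR-365-2 and miR-3963. The sum of miR-129-1 rests mostly on its 5p arm, which cannot be told from that of miR-129-2, so it is no separate call. When exposed replicate 3 was left out, the hairpin of miR-203, a miRNA of the epidermis, passed (log2 1.92, adjusted p = 0.0205), with miR-203-3p at 203.5, 173 and 256 CPM in control and 797, 789 and 254 CPM in exposed libraries. In that fit miR-7003 passed as well (log2 −5.38, adjusted p = 0.00428), and it rests on tags of which the most abundant is 15 nt long.

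Both arms were tested for 69 hairpins, and in 40 they lay on the same side of 0. Both arms were past 1 on the log2 scale for 6 hairpins, and in 5 of these the direction was shared: miR-335, miR-129-2 and miR-22 were higher in exposed cells, and miR-128-1 and miR-3074-1 lower. For miR-18a the arms lay on opposite sides. The ratio of 5p to 3p counts within a library does not depend on scaling, and none of 76 hairpins passed limma's test on its log2 value (0%), with 4 at an unadjusted p under 0.05.

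These 4 hairpins were chosen after their values were seen. For miR-191 the mean log2 ratio of 5p to 3p counts was 5.91 in control and 11.02 in exposed libraries, a difference of 5.11 ± 1.76 (adjusted p = 0.573), and it rests on miR-191-3p at 350.3, 48.7 and 93.8 CPM in control and 0, 46.9 and 0 CPM in exposed libraries. The ratio difference was −2.09 ± 0.75 for miR-181a-2, −6.43 ± 2.42 for miR-542 and −1.84 ± 0.74 for miR-532. All 4 had the same adjusted p with all 6 libraries. Without exposed replicate 3 the difference was 4.11 for miR-191, −2.17 for miR-181a-2, −3.84 for miR-542 and −1.67 for miR-532. By limma's test the adjusted p was then 0.735 for each. The log2 ratio of miR-542 was −5.04, −1.01 and −10.80 in the exposed libraries, with exposed replicate 3 the lowest.

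**Figure D5:**
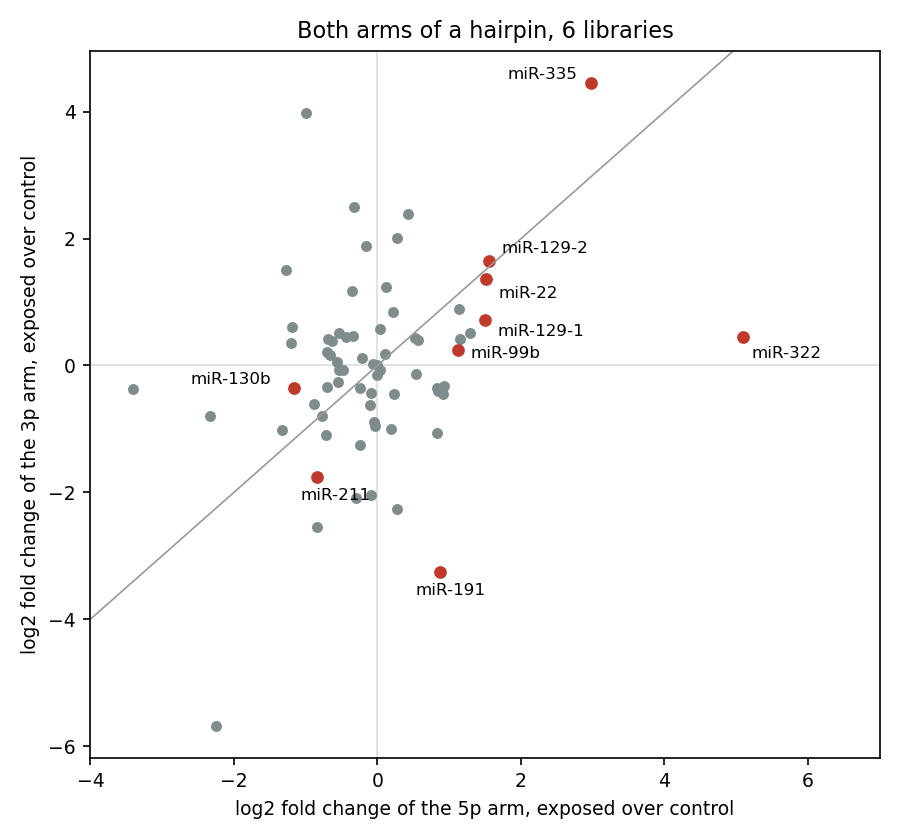
Each of the 69 points is a hairpin with both arms tested, with the log2 fold change (exposed over control, 6 libraries) of the 5p arm on the x axis and of the 3p arm on the y axis, and the line marks equal values. miR-335, miR-129-2 and miR-22 lie in the upper right, miR-191 has arms on opposite sides of 0, and miR-322 has a 5p arm far above 0 with a 3p arm near it.

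Lists of miRNAs by role were read against the shares above. Of 9 tested arms of miRNAs linked to melanoma growth, 1 was called (miR-21a-5p), 4 were higher without overlap and 0 were lower, with a median log2 fold change, which was −0.02 over all arms tested, of 2.23 (1.95 without exposed replicate 3). These 4 arms were miR-21a-5p, miR-193b-3p, miR-365-1-3p and miR-365-2-3p, and they are not independent. The hairpins of miR-193b and miR-365-1 form 1 cluster, and the miR-365 arms share their tags. The median of 2.23 is itself the value of miR-365-1-3p. Here miR-10b-5p, at 9458, 11019.9 and 9818 against 10061, 10271 and 9818 CPM, hardly differed between the groups (log2 −0.01 ± 0.19), and miR-31-5p, at 6182, 5155 and 7379.7 against 6071, 6784 and 8155 CPM, overlapped (log2 0.17 ± 0.23). Of 14 tested arms of miRNAs induced by p53 or linked to senescence, 2 were called (miR-335-5p and miR-22-3p). Without overlap 6 were higher and 1 was lower, with a median of 1.09 (1.36 without exposed replicate 3). The 6 include both arms of the miR-335 hairpin, and the 14 hold the 3p arms of both miR-24 hairpins, which form 1 seed family. These arms are therefore not independent either. The abundant miR-24-1-3p of this list stood at 24117, 20508 and 21691 against 27914, 28592 and 32687 CPM, without overlap but with a log2 fold change of only 0.43 ± 0.21 (adjusted p = 0.312).

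Of 17 tested arms of melanocyte and pigment miRNAs, none was called, 0 were higher without overlap and 5 were lower, with a median of −0.36 (−0.71 without exposed replicate 3). miR-27b-3p, at 24103, 24439.9 and 25315 against 21567, 21849.8 and 39617 CPM (log2 0.17 ± 0.28), and miR-183-5p, at 6258, 6038 and 9980.2 against 10170.2, 5368 and 5478 CPM (log2 −0.08 ± 0.33), overlapped between the groups. Their list also holds miR-211 and miR-148b, described above.

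Cell cycle lists gave no call. The miR-17 to miR-92 group and its paralogs, which promote proliferation, had 14 tested arms with 0 higher and 2 lower without overlap and a median of −0.45. In it miR-92a-1-3p stood at 25083, 28392 and 37866 against 33199, 17713 and 25064 CPM (log2 −0.27 ± 0.29), miR-106b-3p had a log2 fold change of −0.34 ± 0.23 and miR-106b-5p of −0.70 ± 0.35. The miR-15/16 family and its X-linked relatives had 17 tested arms, 4 of them higher without overlap, and a median of 0.54, or 0.13 without exposed replicate 3. miR-15b-5p, at 13699, 16205 and 14874 against 19595, 18293 and 14698 CPM, and miR-16-1-5p, at 4663, 4969 and 5060.5 against 3365, 5064 and 3637 CPM, overlapped between the groups. miR-322-3p did too (log2 0.45 ± 0.37).

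Abundant families likewise gave no call. The let-7 list had 20 tested arms with 2 higher and 1 lower without overlap (median −0.22), and the miR-30 list had 11 with 1 higher and 2 lower (median −0.06). The higher arm was miR-30d-5p, at 20241, 22609 and 19837 against 24164, 23737 and 33669 CPM (log2 0.38 ± 0.23, adjusted p = 0.418). miR-29 had 2 tested arms and miR-26 had 3, all overlapping, with miR-29a-3p at −0.26 ± 0.26 and miR-26a-2-5p at 0.61 ± 0.29 on the log2 scale. The 4 tested arms of miR-378 lay between −0.07 and 0.04, and miR-378a-3p was among the steadiest abundant arms, at 33267, 29752 and 29988 against 25569, 33149 and 30179.6 CPM.

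Of the miRNAs with imprinted hosts, the 2 tested arms were those of miR-335. The other 22 listed arms, most of them from the Dlk1-Dio3 region, were almost silent in control cells and summed to 0, 2.21 and 12.8 CPM there. In exposed cells they summed to 5.73, 53.6 and 14144 CPM, so that this sum too is set by exposed replicate 3, whereas the summed arms of miR-335 stood at 4839, 4798 and 5681 CPM. Known intron pairs and clusters had 43 tested arms, none called, with 11 higher and 2 lower without overlap and a median of 0.52. miR-470 and its 9 X-linked neighbours had no count in any of the 6 libraries, which at this depth allows a level of up to 3 counts per library. The list of miRNAs that the study discusses for this exposure was chosen on these samples and is no independent evidence of direction: of its 51 tested arms 8 were called, and 18 were higher and 9 lower without overlap.

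Set directly against cells exposed to 5.0 mM L-Tyr, an amino acid from which melanin is made, 6 of 231 arms passed (2.6%). miR-211-5p gave 24785, 24905 and 21109.9 CPM in L-Tyr libraries and 8128, 6957 and 6752 CPM in 5-Brd-2′-dU libraries (log2 −1.70 ± 0.21, adjusted p = 0.00522). miR-211-3p gave 2229, 2432 and 2598 against 262, 429 and 371 CPM (log2 −2.77 ± 0.39, adjusted p = 0.00613). Both arms of the melanocyte miRNA were lower after 5-Brd-2′-dU, without overlap. miR-1249-3p was lower as well (log2 −2.32 ± 0.42, adjusted p = 0.0156). Higher after 5-Brd-2′-dU were miR-21a-5p (log2 1.80 ± 0.27, adjusted p = 0.00613), miR-335-3p (log2 4.45 ± 0.67, adjusted p = 0.00613) and miR-193b-3p, at 6.76, 56.2 and 55.3 CPM in L-Tyr and 1458, 1163 and 977 CPM in 5-Brd-2′-dU libraries (log2 4.88 ± 0.85, adjusted p = 0.0136). miR-335-5p, at 453, 132 and 0 against 3939.5, 3224 and 4069 CPM, did not pass (log2 4.28 ± 1.15, adjusted p = 0.147), and its L-Tyr libraries ranged widely. Without exposed replicate 3, 5 of the 6 arms passed.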

How the data were processed

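Small RNA of 9 B16F1 cultures was sequenced, and the 3 control and 3 exposed (5-Brd-2′-dU) libraries were compared, grouped by their labels. The deposited table holds raw counts of sequence tags per hairpin, made by the authors from reads matched to known miRNAs. The submitters' processing notes name FastQC, MultiQC, DESeq, DESeq2 and the build mm9, and no versions are given in the sources used here. The authors' normalised counts and their fold changes and p-values were not used.

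Of 6414 entries, 300 predicted miRNAs were dropped, and 1915 entries carrying only a mature name (58 with counts) were left out of the sums, while 51 of them were added to their arm in an alternative. Tags were summed by hairpin and arm (5p where the start number was under 35, otherwise 3p). Among 185 tags listed under 2 hairpins with at least 100 counts, the smaller copy held a median of 48.5% of them, so the deposited counts were split between copies. Predicted entries took between 1.0% and 2.0% of the counts of the 6 libraries. Positions and hosts come from the NCBIM37 annotation (126 hairpins were placed by sequence match), and mature sequences from RefSeq (GRCm38.p6).

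Counts were tested with edgeR 4.0.16 in R 4.3.3 (filterByExpr, TMM, quasi-likelihood test, Benjamini-Hochberg adjustment over all features, call at an adjusted p under 0.05). Ratios of 5p to 3p counts were tested with limma 3.58.1 on log2((5p + 0.5)/(3p + 0.5)) where both arms had a mean count of at least 10. Alternatives were the size factors of DESeq2 1.42.0, total counts, DESeq2's own test, other filters and tag sets, the replicate block, and leaving out each library. The fits were also run on simulated counts. These had less spread than the data and no library that stood apart, so they do not measure the error rate here. The ± values are standard errors of the fits and include the spread between libraries. Ratios and limits set by 3 counts rest on counts alone and leave that spread out. The tags carry no molecular identifiers.

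The arms described by name are those called in either fit, up to 8 more in each direction by size (a mean of at least 100 CPM, an unadjusted p under 0.05 in both fits, groups without overlap), those whose log2 fold change differed by over 1 without exposed replicate 3, members of called families and clusters, and up to 4 abundant members of each of 16 lists. The members of the comparison, the lists and the markers were chosen with earlier results of these data known, and the lists got no test of their own. Changes of a list are described by counts and medians.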

Additional observations from a re-analysis of the deposited data

Results flagged for a closer look

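Arms that differed between the exposures in a direct test of 5-Brd-2′-dU against L-Tyr are listed because effects under these exposures part there. The log2 differences were −1.70 for miR-211-5p, −2.77 for miR-211-3p, 4.45 for miR-335-3p, 1.80 for miR-21a-5p, 4.88 for miR-193b-3p and −2.32 for miR-1249-3p, each with an adjusted p under 0.05 by edgeR's quasi-likelihood test and with groups that did not overlap.

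Among the predicted miRNAs, which the comparison leaves out, 40 entries were tested as features beside the known arms. Higher in all exposed than in all control libraries were 4 of them, and 7 were lower in all. Among the 259 known arms tested, 39 (15.1%) were higher and 30 (11.6%) were lower in this way. For 1 entry, which overlaps the hairpin of miR-22, the adjusted p was under 0.05.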

How the results depend on the processing

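The count of called arms (8 with all 6 libraries) was 23 with DESeq2's test, 31 with no filter on low counts, 17 in a fit of all 9 libraries, 5 with tags listed under 1 hairpin only and 3 with each tag a feature, and it ran from 1 (without control replicate 2) to 12 when each library was left out, with 2 without control replicate 1. Without exposed replicate 3 (10 arms), it was 6 with the size factors of DESeq2, 22 with DESeq2's test, 17 with no filter and 4 with tags of 1 hairpin only, and ran from 2 (without control replicate 1 or 2) to 30 (without exposed replicate 2) with a further library left out, with 17 without exposed replicate 1. Where 1 exposed library was left, the fit assumes that it varies like the others. The count of seed families (8) was 24 with DESeq2's test and 36 with no filter, and ran from 1 (without control replicate 2; 2 without control replicate 1) to 10. With RefSeq seeds and without exposed replicate 3, an alternative chosen after seeing the data, it was 5. The count of clusters and hairpins (13) was 27 with DESeq2's test and 25 with no filter, and ran from 3 (without control replicate 1; 7 without control replicate 2) to 18. The count of arms against L-Tyr (6) was 26 with no filter, and ran from 1 to 5, with the lowest value without L-Tyr replicate 3 and 2 without exposed replicate 2. The count of arm ratios (0) ran from 0 to 1, the call being miR-450b without control replicate 3. The cause of these shifts was not tested. The 8 called arms kept their call under the size factors of DESeq2 and under total counts.

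The numbers shared by control and exposed libraries did not pair them: deviations of same-numbered libraries correlated at 0.052, −0.029 and 0.064, and with the replicate block 1 arm, 4 arms without exposed replicate 3, 2 families and 4 clusters or hairpins passed, against L-Tyr 5 arms and no arm ratio.

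Of 1647 alternative log2 fold changes of the 85 named arms, 7 changed direction. Without exposed replicate 3 these were miR-101a-3p (−0.26, with a range to 2.69 over the libraries left out), miR-199a-1-3p (−1.09, to 0.42), miR-199a-2-3p (−1.09, to 0.66), miR-24-1-5p (−2.09, to 2.12) and miR-26b-5p (−0.32, to 0.67). With tags of 1 hairpin only they were miR-129-1-3p (−0.0443) and miR-16-2-5p (1.17). Depth limits the rarer arms most, since 3 counts amount to between 6.64 and 17.2 CPM.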

Other observations

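The miRNAs of the miR-290 group, which are known from embryonic stem cells, were read as values only, and were chosen after their values were seen. The cluster of miR-292a, miR-293 and miR-294 had no count in the 3 control libraries and stood at 40.1, 67.0 and 569 CPM in the exposed libraries, with exposed replicate 3 the highest. The cluster did not pass edgeR's quasi-likelihood test with or without that library. With no control count, it met the filter on low counts through the exposed libraries alone, so this test decides nothing. All 127 counts of miR-294-3p were in exposed replicate 3, and so were 30 of the 60 counts of miR-292a-5p. Set against 3 counts over the control group, the pooled counts of miR-292a-5p give a ratio of 19.99 in the exposed libraries. In exposed replicates 1 and 2 alone the ratio is 14.4. Both leave out the spread between libraries and are no limit on the change.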
